A study of Mus musculus with 8 samples.

Results

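The 83 genes described here encode, or are named for, the subunits of oxidative phosphorylation that the nucleus supplies to mitochondria. They were taken by symbol alone from 20278 genes with expression values: NADH dehydrogenase genes named Nduf with a letter a, b, c, s or v and a number, Sdha to Sdhd, every Uqcr gene, genes whose symbols begin with Cox4 to Cox8, and every Atp5 gene, with pseudogene symbols ending in -ps left out. By name, 36 belong to complex I, 4 to complex II, 8 to complex III, 18 to complex IV and 17 to complex V. Names and present placement differ for a few. Ndufa4 carries a complex I name but is now regarded as a subunit of complex IV, Cox7a2l is known for joining complexes into supercomplexes, and Atp5s and Atp5sl are not core subunits of ATP synthase. The subunits encoded by mitochondrial DNA were not analysed here.

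The RNA came from N33, 1 line of embryonic stem cells (ESCs) of C57BL/6 mice, grown in 4 conditions with 2 replicates each. In −F, cells grew on gelatin with 20% fetal bovine serum and no feeders, and in F they grew in the same serum on feeders, which are mouse embryonic fibroblasts made unable to divide with mitomycin C. In F2i, serum and feeders were combined with 2i, a pair of inhibitors of Gsk3β and Mek whose concentrations for this condition are not given in the sources used here. In NB2i, cells grew without serum or feeders on poly-L-ornithine and laminin in N2B27, a defined medium, with 3 µM CHIR99021 (the Gsk3β inhibitor) and 1 µM PD0325901 (the Mek inhibitor). All 4 conditions had LIF at 1000 U/ml, which keeps mouse ESCs from differentiating. ESCs were parted from feeders by 2 rounds of differential adherence, so feeder RNA could remain in F and F2i. NB2i differs from F2i in base medium, substrate, serum and feeders at once. From −F it differs in base medium, substrate, serum and 2i at once. The replicates are called biological in the study, but no label ties them to separate cultures, so that p-values measure the spread between these libraries.

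Complex I takes electrons from NADH and complex II takes them from succinate. Both pass them through ubiquinone to complex III, cytochrome c and complex IV, where oxygen is reduced, while complexes I, III and IV pump protons across the inner mitochondrial membrane. Complex V, the ATP synthase, lets the protons return and makes ATP. Most subunits are accessory proteins from nuclear genes. Complex IV has alternative isoforms that mark tissues such as muscle, lung and testis, and the c ring subunit of ATP synthase is made from several genes. Mouse ESCs in the naive state use both glycolysis and oxidative phosphorylation.

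The promoters of 5 members are shown because these genes are among the larger rises of complexes I, II and IV described below, chosen with their values known, and the capitals mark the letters searched for. The windows run from 250 bases before to 50 bases after a start site that RefSeq gives on GRCm38.p6, the same build as mm10, and 69 of the 83 members had at least 1. In 16 members, Cox5a among those printed, a window's start site was not the outer end of the RefSeq gene. Letters searched on both strands were GCGCA followed by any base and GCGC for nuclear respiratory factor 1 (NRF1), CCGGAAG for ETS factors such as GABP, AAGATGGCG for YY1 and AAGGTCA for the estrogen-related receptors (ERR), none of them the full range of what these factors bind.
Cox6a1, chr5:115348909-115349208, minus strand: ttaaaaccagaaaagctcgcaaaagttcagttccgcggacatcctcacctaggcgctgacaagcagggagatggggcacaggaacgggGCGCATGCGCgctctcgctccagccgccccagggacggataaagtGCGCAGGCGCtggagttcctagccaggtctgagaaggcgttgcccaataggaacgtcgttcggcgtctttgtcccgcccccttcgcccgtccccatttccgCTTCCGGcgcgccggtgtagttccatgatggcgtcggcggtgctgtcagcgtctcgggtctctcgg
Sdha, chr13:74350191-74350490, minus strand: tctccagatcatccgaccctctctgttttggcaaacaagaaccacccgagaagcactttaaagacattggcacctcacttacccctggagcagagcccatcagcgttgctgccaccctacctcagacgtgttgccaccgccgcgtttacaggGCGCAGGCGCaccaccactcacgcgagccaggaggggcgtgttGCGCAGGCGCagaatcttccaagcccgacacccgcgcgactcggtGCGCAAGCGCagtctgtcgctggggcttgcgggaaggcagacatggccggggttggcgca
Cox6b1, chr7:30626065-30626364, minus strand: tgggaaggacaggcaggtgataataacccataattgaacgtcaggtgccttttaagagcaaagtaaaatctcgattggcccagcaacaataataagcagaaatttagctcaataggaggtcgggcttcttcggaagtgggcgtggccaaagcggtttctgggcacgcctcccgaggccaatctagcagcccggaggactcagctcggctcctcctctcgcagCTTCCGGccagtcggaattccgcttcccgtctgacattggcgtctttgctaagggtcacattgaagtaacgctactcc
Ndufs4, chr13:114388045-114388344, minus strand: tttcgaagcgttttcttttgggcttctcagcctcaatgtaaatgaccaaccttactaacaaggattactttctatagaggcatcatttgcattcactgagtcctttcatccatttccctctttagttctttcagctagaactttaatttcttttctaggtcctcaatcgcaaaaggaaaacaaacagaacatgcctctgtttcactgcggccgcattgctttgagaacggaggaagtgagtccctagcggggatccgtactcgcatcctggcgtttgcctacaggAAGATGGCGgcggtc
Cox5a, chr9:57520982-57521281, plus strand: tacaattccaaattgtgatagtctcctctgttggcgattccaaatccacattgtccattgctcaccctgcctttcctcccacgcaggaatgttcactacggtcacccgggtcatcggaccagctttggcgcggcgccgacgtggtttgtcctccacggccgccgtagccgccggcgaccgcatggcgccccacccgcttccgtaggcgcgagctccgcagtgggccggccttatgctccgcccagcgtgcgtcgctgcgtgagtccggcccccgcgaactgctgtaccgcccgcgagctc
Positions are counted from the start site, with negative numbers upstream of it. In Cox6a1 the NRF1 letters stood at −162 to −153, where they read the same on both strands, and at −117 to −108, and the ETS letters on the other strand at −16 to −10. The Sdha window held the NRF1 letters 3 times, beginning at −98, −55 and −10. Cox6b1 had the ETS letters at −28 to −22, Ndufs4 had the YY1 letters downstream of the start site at 36 to 44, and none of the 4 motifs was in the Cox5a window, whose start site lies 3904 bases downstream of the end at which RefSeq's Cox5a gene begins. The sequence at that outer end was not searched.

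Across the members the NRF1 letters were in 24.6% of the 69 members with a window against 5.19% of all 27025 genes with one. For the ETS letters the shares were 23.2% and 9.93%, for the YY1 letters 11.6% and 1.64%, and for the ERR letters 11.6% and 5.38%. At least 1 of the 4 was in 36 members (52.2%, against 19.9% of all genes), 11 members held 2 or more kinds, and in 0 members did ETS and YY1 letters overlap. The genes with a window outnumber the 20278 with expression values, while 78 of the 83 members were above 1 FPKM in every library. The 2 sets are thus unlike in expression, and shares among expressed genes alone were not counted. Members with and without the NRF1 letters are set side by side as a description: the median log2 fold change of NB2i against −F was 0.34 in 17 members with them and 0.219 in 50 without. For the ETS letters the order was the other way, with 0.176 in 16 members and 0.29 in 51, as it was for the YY1 letters (0.182 in 8 and 0.251 in 59) and the ERR letters (0.093 in 8 and 0.273 in 59). In F2i against F the medians with and without were 0.162 and 0.126 for NRF1 and 0.136 and 0.139 for ETS. They were 0.165 and 0.126 for YY1 and 0.128 and 0.139 for ERR, so the order of YY1 was not the same in both comparisons. A match of letters is not a binding site, and no binding was measured.

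Reads were poly-A RNA, single ends of 50 bases, which the authors assigned to genes and gave both as RSEM's estimate of a gene's reads (expected counts) and as FPKM (that estimate divided by transcript length and library depth, a level that can be compared between genes). Libraries held 20129641 to 20664488 expected counts. The members took 1.01% to 1.10% of a library's counts in the 3 serum conditions and 1.21% in both NB2i libraries. All 8 ESC markers on the list, Pou5f1 and Nanog among them, were expressed in every library. Of the 12 fibroblast markers all were higher in F than in −F, against 21.7% of all genes. Their summed level was 233 to 241 FPKM in −F, 667 to 687 in F, 1519 to 1529 in F2i and 793 to 817 in NB2i. The sum in NB2i was mostly Fn1 and Sparc, which are not particular to fibroblasts. Col1a1 was at 0.55 and 0.51 FPKM there against 248 and 239 FPKM in F2i, Lum was listed at 0 in both −F and both NB2i libraries, and Dcn and Postn were also listed at 0 in both NB2i libraries. In such bulk samples a change in the number of cells of a type and a change of RNA per cell cannot be told apart.

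All but 5 members were expressed in every library, with 78 of 83 above 1 FPKM in all 8. ATP synthase and complex IV genes had the highest levels. Averaged over all libraries, Atp5b, which encodes the catalytic beta subunit of ATP synthase, led with 973 FPKM, followed by Cox7c with 570, Atp5a1 with 494, Cox4i1 with 437 and Cox8a with 404 FPKM. The first complex I genes in that order were Ndufa7 in place 12 (252 FPKM) and Ndufa4 in place 13 (251 FPKM), neighbours whose ranges over the libraries overlapped. The 5 low members were Cox4i2, Cox6a2, Cox7b2, Cox8b and Cox8c, all of them alternative isoforms of complex IV.

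**Figure D1:**
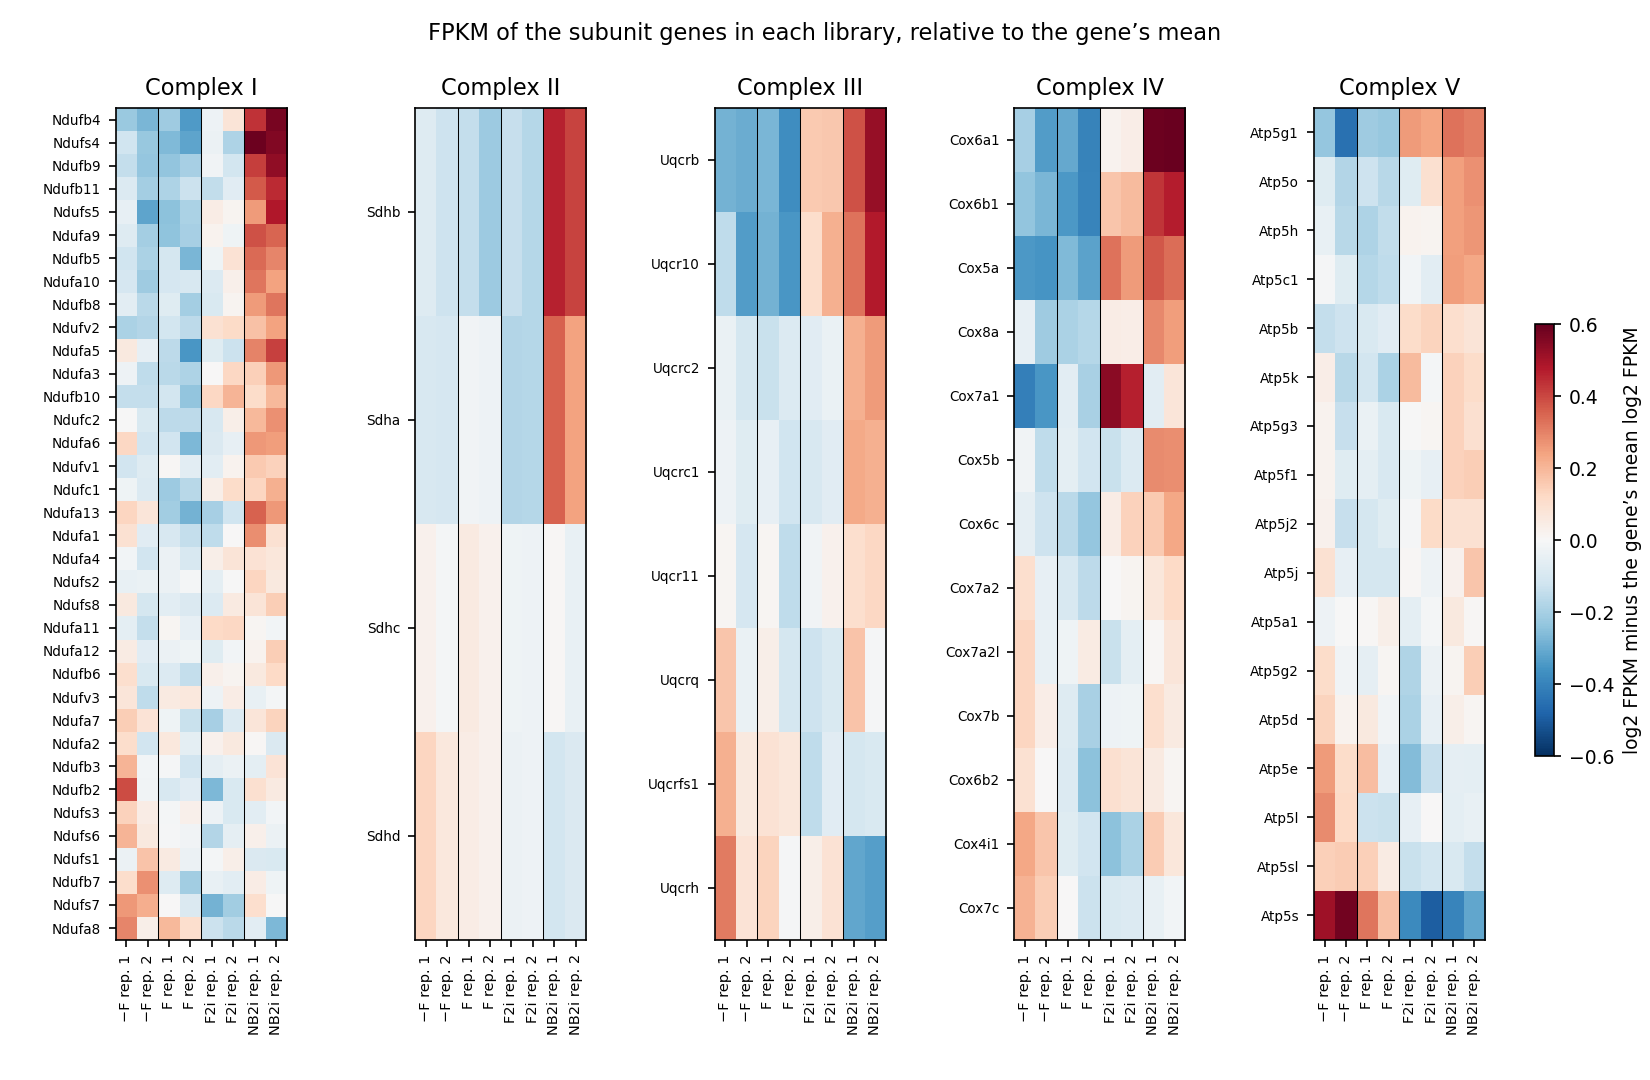
FPKM of the 78 members above 1 FPKM in every library, 1 panel per complex and 1 column per library; colour is the log2 FPKM minus the gene's mean over the 8 libraries, and genes are ordered by NB2i minus −F. Most rows turn from blue to red towards the NB2i columns, while Uqcrh, Ndufa8 and Atp5s run the other way.

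Each comparison was tested by edgeR's quasi-likelihood method with Benjamini-Hochberg adjustment over 15287 genes, and a member was called at an adjusted p under 0.05. Of the 83 members, 79 had enough counts to be tested. The first comparison asked what feeders change in serum, and its shares over all 79 tested members lay at or under the background. By complex, the share lower was above the background in complex IV, at 35.7% against 18.5% of all genes. Against −F, 1 member was higher in F (1.27%, against 21.7% of all genes) and 13 were lower (16.5%, against 18.5% of all genes), with a median log2 fold change of −0.038 where the median of all genes was 0. Adding 2i to feeders and serum went with 35 members higher in F2i than in F (44.3%, against 27.3% of all genes) and 7 lower (8.86%, against 27.4%), with a median of 0.126 beside −0.003 for all genes.

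The step from F2i to NB2i, which takes away feeders and serum and changes the medium, had 41 members higher (51.9%, against 33.3% of all genes) and 3 lower (3.80%, against 30.8%). The members' median was 0.136 and that of all genes 0.018. Between the 2 feeder-free conditions, NB2i against −F, 51 members were higher (64.6%, against 36.9% of all genes) and 10 lower (12.7%, against 35.4%), with a median of 0.235 beside 0.010. The rises were small. In none of the 4 comparisons did a member rise 2-fold, by edgeR or DESeq2 or at an unadjusted p under 0.05 (0 each), while 5.59%, 6.44%, 6.01% and 11.1% of all genes did so by edgeR in the order above. One member, Cox4i2, fell more than 2-fold, in NB2i against F2i and against −F, in which 13.3% and 16.1% of all genes did. It had 1 and 3 counts in NB2i and reached the count minimum only through the groups where it was high, so that its fall is a description. In F against −F and F2i against F 0 members fell so far by the same 3 measures, beside 1.65% and 7.0% of all genes. The biological coefficient of variation was 3.25%, so that differences of this size pass, and an exact permutation test of 2 libraries against 2 cannot give a p under 0.3333. Among the genes given with values, the members Ndufa7, Ndufa13, Ndufb11, Uqcr10, Uqcrc2 and Cox7c and, of the listed genes, Gabpa, Suclg2, Mrps2 and Mrps27 had counts that were not whole in most libraries, a sign that RSEM divided their reads with other transcripts, and their values are less certain.

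**Figure D2:**
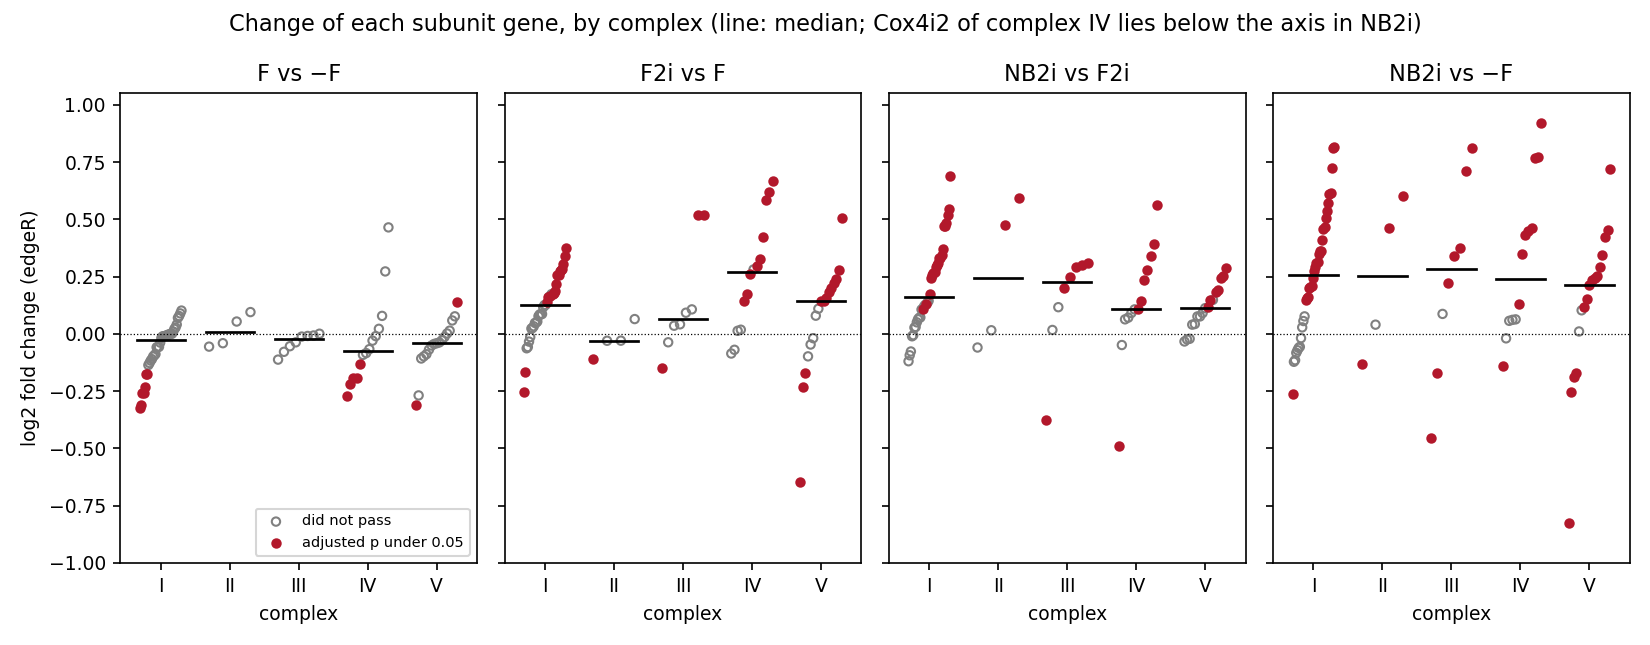
Log2 fold change (vertical axis, from the edgeR fit) of every tested member by complex (horizontal axis) in the 4 comparisons; filled points passed an adjusted p of 0.05, open ones did not, and lines are medians. Points spread around 0 in F against −F and lie mostly above it in the other 3; Cox4i2 lies below the axis at −3.26 and −2.52 in the 2 NB2i comparisons.

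Most complex I genes had their highest values in NB2i. Its 36 members had 15 higher (41.7%) and 2 lower (5.56%) in F2i against F, beside 27.3% and 27.4% of all genes. In NB2i against F2i 20 were higher (55.6%, against 33.3% of all genes). In NB2i against −F 25 were higher (69.4%, against 36.9%) and 1 lower (2.78%, against 35.4%). The complex's summed level was 3074 and 2868 FPKM in −F, 2849 and 2749 in F, 2908 and 3029 in F2i and 3415 and 3487 in NB2i, so both NB2i libraries lay above all 6 others. This was a mean 16.3% above F2i and 16.1% above −F. The 7 core subunits that the nucleus encodes, which carry the iron-sulfur clusters and the NADH site, had 4 higher in NB2i against −F with a median of 0.202. Of the 28 accessory subunits (Ndufa4 apart) 20 were higher and 1 lower, with a median of 0.304.

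Ndufs4 had the largest rise of a complex I gene over F2i. It encodes an accessory subunit whose loss in mice causes a disease like Leigh syndrome, and lies on chromosome 13 from 114287795 to 114388094. Its FPKM was 31.77 and 29.47 in −F, 28.76 and 27.75 in F, 33.64 and 30.34 in F2i and 51.93 and 50.69 in NB2i. The NB2i pair was thus apart from all other libraries, with log2 fold changes of 0.69 against F2i (standard error 0.058, adjusted p = 1.1e-09) and 0.81 against −F (standard error 0.058, adjusted p = 3.9e-11). Ndufb4, an accessory subunit of the membrane arm on chromosome 16 from 37647602 to 37654368, rose at both steps. It had 122.83 and 118.81 FPKM in −F, 123.70 and 113.41 in F, 140.66 and 151.24 in F2i and 193.76 and 212.55 in NB2i. Its log2 fold change was 0.34 in F2i against F (adjusted p = 6.7e-05) and 0.82 in NB2i against −F (adjusted p = 3.7e-11).

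After Ndufs4, the next rises of complex I over F2i by size were those of Ndufb9 and Ndufb11, both accessory subunits of the membrane arm like Ndufb4. Ndufb9 was at 117.86 and 111.07 FPKM in −F, 110.40 and 113.63 in F, 128.30 and 120.49 in F2i and 173.41 and 188.11 in NB2i (log2 fold change 0.55 against F2i and 0.73 against −F). Ndufb11, whose gene overlaps Rbm10, was 0.52 higher on the log2 scale in NB2i than in F2i, at 89.22 and 94.35 FPKM against 62.44 and 66.12. In F2i against F, Ndufb10 (0.38) was above Ndufb4 and Ndufc1 (0.30) below it among the 3 largest rises of the complex. Falls were few. Ndufa8 was lower in F2i than in F (fell by 0.25 on the log2 scale, adjusted p = 0.013) and in NB2i than in −F (fell by 0.26, adjusted p = 0.0073), and Ndufs7, a core iron-sulfur subunit, was lower in F2i than in F (fell by 0.17, adjusted p = 0.031). Both calls in F2i against F were lost with DESeq2, at adjusted p = 0.075 and 0.17. That of Ndufa8 against −F was lost without −F replicate 1 (log2 fold change −0.13) and without NB2i replicate 2 (−0.15).

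In F against −F, 7 of 36 complex I genes were lower (19.4%), a share near the 18.5% of all genes. Ndufa13, also known as Grim19, led with 63.55 and 61.01 FPKM in −F and 50.20 and 47.75 in F (log2 fold change −0.32, standard error 0.053, adjusted p = 4.8e-05). Its gene overlaps Tssk6. Ndufb7 fell by 0.31 and Ndufb2 by 0.26 on the log2 scale. The call of Ndufb2 was lost in 10 alternative fits, and without −F replicate 1 its log2 fold change was −0.04 (adjusted p = 0.76). The 2 −F libraries of Ndufb2 lay far apart, at 86.25 and 64.89 FPKM, and only the first stood clear of the F libraries at 61.65 and 62.74.

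Complex II, which is also an enzyme of the tricarboxylic acid cycle, fell into 2 pairs of genes in NB2i. Sdha, the flavoprotein that oxidises succinate, was at 101.83 and 101.45 FPKM in −F, 107.07 and 106.70 in F, 96.46 and 96.71 in F2i and 138.91 and 128.56 in NB2i. Sdhb, the iron-sulfur protein, was at 70.69 and 68.42, 67.60 and 64.18, 67.82 and 66.37, and 102.90 and 98.95 FPKM in the same order. Both catalytic subunits thus had their highest values in the NB2i libraries, with no overlap with any other library. Over F2i the log2 fold change was 0.48 for Sdha (standard error 0.043, adjusted p = 4.1e-09) and 0.60 for Sdhb (standard error 0.048, adjusted p = 4.7e-10), and over −F it was 0.46 and 0.60.

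The genes of the membrane anchors had other values. Sdhc lay between 98.49 and 105.52 FPKM over the 8 libraries and passed in no comparison, and Sdhd went from 89.51 and 85.56 FPKM in −F to 75.71 and 76.97 in NB2i (fell by 0.13 on the log2 scale, adjusted p = 0.012). Sdhd's call was lost without −F replicate 1 (adjusted p = 0.064) and without either NB2i replicate (adjusted p = 0.087 and 0.056). Sdha was lower in F2i than in F (fell by 0.11, adjusted p = 0.042), a call lost in 9 alternative fits, among them DESeq2 (adjusted p = 0.091). The summed level of the complex was 14.0% higher in NB2i than in −F.

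Among the 8 genes of complex III, 2 small accessory subunits rose most. Uqcrb, a ubiquinone-binding protein gene on chromosome 13 from 66900576 to 66905350, had 190.18 and 187.94 FPKM in −F, 191.59 and 178.90 in F, 258.05 and 258.71 in F2i and 301.68 and 332.74 in NB2i. Uqcr10 had 176.81 and 155.70, 161.40 and 154.04, 211.56 and 227.99, and 246.48 and 273.59 FPKM in that order. For both genes the 2 serum conditions without 2i overlapped, F2i lay above them and NB2i above F2i. Log2 fold changes of Uqcrb were 0.52 in F2i against F (adjusted p = 1.5e-08), 0.30 in NB2i against F2i (adjusted p = 1.3e-05) and 0.81 in NB2i against −F (adjusted p = 2.4e-12), and those of Uqcr10 were 0.52, 0.25 and 0.71.

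The core proteins Uqcrc1 and Uqcrc2 passed only with NB2i in the comparison. Uqcrc1 lay between 150.34 and 159.81 FPKM in the 6 serum libraries and was at 191.14 and 189.60 in NB2i (0.31 over F2i and 0.34 over −F on the log2 scale). Uqcrc2 lay between 81.09 and 86.72 FPKM in serum and was at 103.12 and 106.49 in NB2i (0.29 and 0.37). Uqcr11 was higher in NB2i than in −F (0.22) and Uqcrq higher in NB2i than in F2i (0.20). Uqcrq overlaps Gdf9, and its call was lost in 8 of the alternative fits.

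Uqcrh, the hinge protein between cytochrome c1 and cytochrome c, ran against the rest. Its FPKM was 176.24 and 150.37 in −F, 155.86 and 141.61 in F, 145.66 and 151.18 in F2i and 114.60 and 113.03 in NB2i. Both NB2i values were the lowest of all libraries, and the gene fell by 0.38 on the log2 scale against F2i (standard error 0.064, adjusted p = 2.7e-05) and by 0.45 against −F (standard error 0.063, adjusted p = 1.5e-06). Uqcrfs1, the Rieske iron-sulfur protein, was lower in F2i than in F (fell by 0.15, adjusted p = 0.019) and in NB2i than in −F (fell by 0.17, adjusted p = 0.006). The first call was lost by DESeq2 (adjusted p = 0.10) and the second without −F replicate 1 (adjusted p = 0.12). The complex as a whole summed to 1083 and 998 FPKM in −F, 1030 and 969 in F, 1115 and 1152 in F2i and 1245 and 1300 in NB2i.

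**Figure D3:**
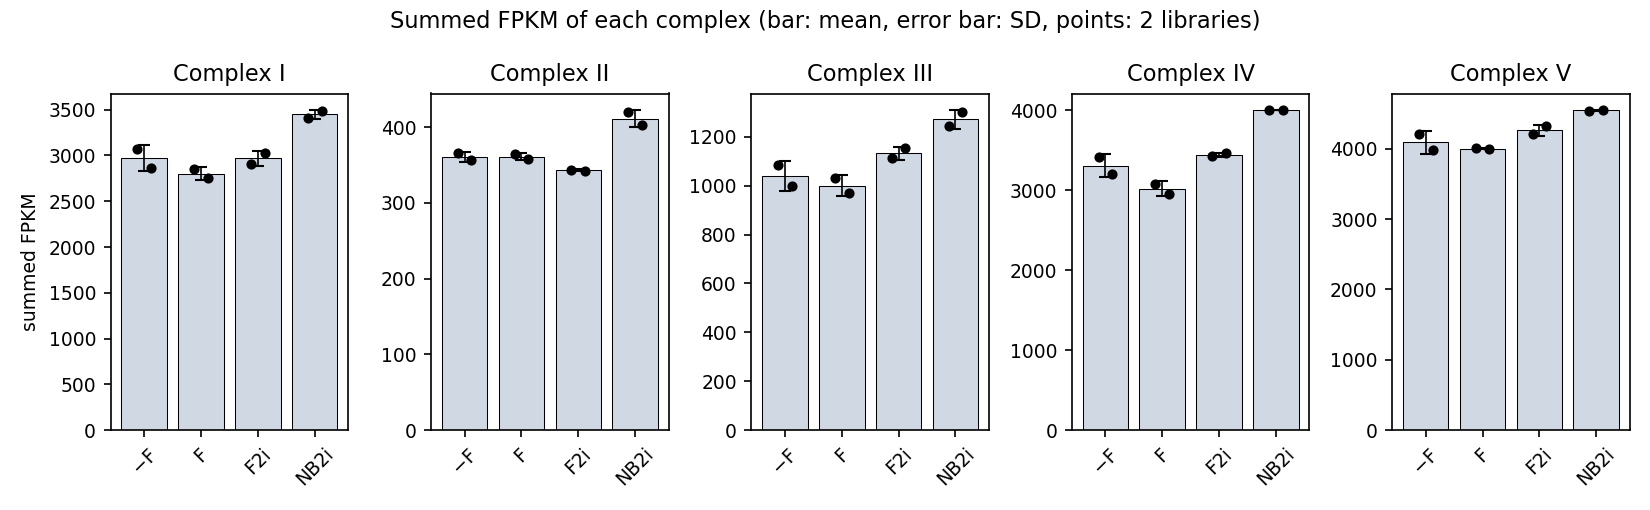
Summed FPKM of the members of each complex (vertical axes, starting at 0) in the 4 conditions; bars are means of 2 libraries, error bars are SD and points are the libraries. For each complex both NB2i points lie above all others, with mean differences from −F of 11.2% for complex V to 22.3% for complex III.

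Complex IV summed to 3412 and 3205 FPKM in −F, 3086 and 2952 in F, 3427 and 3464 in F2i and 4011 and 4005 in NB2i. Its mean changed by −8.75% from −F to F, the largest fall of the 5 complexes. In F against −F, 5 of its 14 tested genes were lower (35.7%, against 18.5% of all genes), but 3 by DESeq2. In F2i against F, 9 of the 14 were higher (64.3%, against 27.3% of all genes). The complex had 0 lower, also by DESeq2 and at an unadjusted p under 0.05, beside 27.4% of all genes. Its median of 0.271 was the highest of the 5 complexes in that comparison. Cox6a1, the widespread isoform of subunit 6a on chromosome 5 from 115345652 to 115348958, had the largest rise of any member in NB2i against −F. It was at 318.47 and 289.95 FPKM in −F, 295.07 and 276.84 in F, 370.97 and 376.08 in F2i and 549.58 and 550.75 in NB2i. The steps up did not overlap, and the log2 fold changes were 0.42 in F2i against F (standard error 0.048, adjusted p = 1.3e-07), 0.56 in NB2i against F2i (standard error 0.046, adjusted p = 6e-10) and 0.92 in NB2i against −F (standard error 0.047, adjusted p = 8.4e-14), a rise of 1.90-fold.

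Cox5a and Cox6b1 rose mainly with 2i in serum. Cox5a, which encodes a subunit on the matrix side (chromosome 9, 57517328 to 57532427), went from 286.19 and 274.62 FPKM in F to 429.85 and 409.42 in F2i (log2 fold change 0.62, standard error 0.042, adjusted p = 5e-11). It was at 444.03 and 433.74 FPKM in NB2i, a step that did not pass. Cox6b1, on chromosome 7 from 30616971 to 30626114, went from 232.90 and 224.18 FPKM in F to 330.93 and 336.37 in F2i and 397.38 and 408.86 in NB2i, with log2 fold changes of 0.58 and 0.28 at the 2 steps. Cox8a rose by smaller amounts at both (0.26 and 0.23). Cox5b, the zinc-binding subunit, stayed between 230.01 and 251.50 FPKM in the serum libraries and was at 310.96 and 309.48 in NB2i (0.39 over F2i, adjusted p = 2.2e-07).

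Cox4i1, the widespread isoform of the subunit that binds ATP, and Cox7c, the second most abundant member, had another order. Cox4i1 was at 509.90 and 486.72 FPKM in −F, 412.92 and 400.93 in F, 365.66 and 380.40 in F2i and 482.22 and 455.06 in NB2i. The 2 conditions with feeders were the low ones, with a fall of 0.27 in F against −F (adjusted p = 3.9e-05) and a rise of 0.34 in NB2i against F2i (adjusted p = 9.1e-07). Cox7c was at 656.81 and 629.72 FPKM in −F and between 518.91 and 569.35 FPKM in the other 6 libraries, with falls of 0.22 in F against −F and 0.14 in NB2i against −F. The latter was lost without NB2i replicate 1 (adjusted p = 0.077).

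The tissue isoforms of complex IV differed greatly in level. Cox4i2, the isoform known from lung and from its response to low oxygen, was at 0.97 and 0.77 FPKM in −F, 1.40 and 0.97 in F, 1.13 and 1.68 in F2i and 0.07 and 0.21 in NB2i. Both NB2i values were below every other library, and they rested on 1 and 3 counts. The 2 NB2i libraries held 4 counts in all against 40 in F2i, a depth-adjusted ratio of 0.0983 (95% exact interval 0.0256 to 0.272, counting error only), and against 25 in −F, a ratio of 0.159 (0.0402 to 0.46). Both differences passed the test, but the gene entered it only through the groups where it was high, so they are a description. Of the 12 fibroblast markers, 10 fell and 1 rose in NB2i against F2i, and 7 fell and 3 rose in NB2i against −F. Of all genes, 30.8% fell and 33.3% rose in the first of these, and 35.4% fell and 36.9% rose in the second. In −F, where no feeders were used, Col1a1 was at 2.59 and 2.47 FPKM and Cox4i2 had 14 and 11 counts; the part of feeder RNA was not tested. Bcl2l1 overlaps the gene, and whether the libraries kept strand is not given in the sources used here.

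The muscle isoforms of subunits 6a and 8 were near 0. Cox6a2 was listed at 0.15 and 0 FPKM in −F, 0.23 and 0 in F, 0.08 and 0 in F2i and 0.74 and 0.60 in NB2i, the latter from 10 and 8 counts, and it did not reach the count minimum. Cox8b had 1 count in all. The germ cell isoforms Cox8c and Cox7b2 stayed at or under 0.33 and 0.80 FPKM. Cox6b2, known from testis, was by contrast well expressed, at 64.27 to 81.55 FPKM over the 8 libraries. It was lower in F than in −F (fell by 0.19, adjusted p = 0.031), a call lost in 5 alternative fits, among them DESeq2 (adjusted p = 0.12), without −F replicate 1 (adjusted p = 0.16) and without F replicate 2 (−0.11, adjusted p = 0.31). It was higher in F2i than in F (0.30, adjusted p = 0.00091). Its share of subunit 6b, as FPKM of Cox6b1 and Cox6b2 together, went from 24.5% and 23.8% in −F to 16.6% and 15.8% in NB2i, with Cox6b1 rising beside it. Of 8 striated muscle markers 5 were tested, with 2 higher and 2 lower in F against −F, 2 and 2 in F2i against F, 0 and 4 in NB2i against F2i and 1 and 3 in NB2i against −F. Of 5 male germ cell markers 3 were tested, with 1 and 0, 1 and 2, 0 and 3, and 0 and 2. Of all genes, 21.7% were higher and 18.5% lower in F against −F, and 27.3% and 27.4% in F2i against F. In NB2i the shares were 33.3% and 30.8% against F2i and 36.9% and 35.4% against −F. Each 0 of these edgeR marker counts was also 0 by DESeq2 and at an unadjusted p under 0.05. Summed levels were 19.29 to 21.51 FPKM of muscle markers in the serum libraries and 8.04 and 8.12 in NB2i.

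Cox7a1, the heart and muscle isoform of subunit 7a (chromosome 7, 30184171 to 30186030), peaked in F2i. It was at 15.50 and 16.18 FPKM in −F, 19.72 and 17.98 in F, 29.99 and 28.41 in F2i and 19.73 and 21.62 in NB2i. The F2i libraries lay above all others. Its rise in F2i against F was the largest of any member in that comparison (log2 fold change 0.67, standard error 0.11, adjusted p = 2.6e-05), and it fell by 0.49 from F2i to NB2i (adjusted p = 0.00049). The rise of 0.45 over −F was lost by DESeq2 (adjusted p = 0.064). The summed fibroblast markers had the same order of F2i over F over −F, and their part in it was not tested. Its widespread relatives Cox7a2 (134.85 to 163.50 FPKM) and Cox7a2l (120.41 to 144.43 FPKM) changed by at most 0.17 on the log2 scale where they passed. Cox7b had small calls in 3 comparisons, of which the rise of 0.11 in NB2i against F2i was lost in 12 alternative fits.

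**Figure D4:**
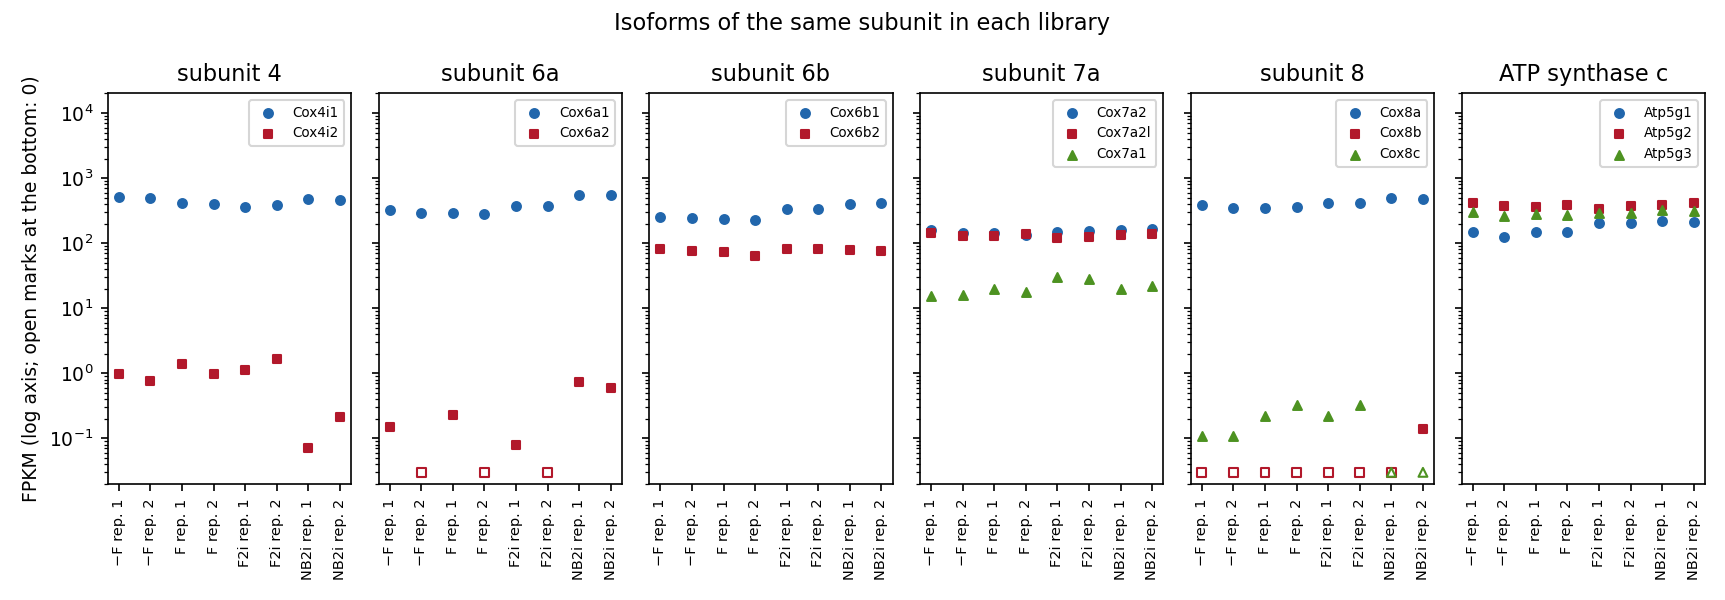
FPKM (log axis) of isoforms of the same subunit in each of the 8 libraries; open marks at the bottom stand for 0. The widespread isoforms lie above 100 FPKM, Cox4i2, Cox6a2, Cox8b and Cox8c lie below 2 FPKM, and Cox6b2 and Cox7a1 lie between; Cox4i2 drops in both NB2i libraries.

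Complex V had the smallest difference of summed level of the 5 complexes in NB2i against F2i (6.74%) and against −F (11.2%), at 4210 and 3977 FPKM in −F, 4008 and 3998 in F, 4206 and 4322 in F2i and 4545 and 4557 in NB2i. Of its 17 genes 9 were higher (52.9%, against 27.3% of all genes) and 3 lower (17.6%, against 27.4%) in F2i against F. In NB2i against F2i 7 were higher (41.2%, against 33.3% of all genes), but 5 by DESeq2. In NB2i against −F 11 were higher (64.7%, against 36.9%) and 4 lower (23.5%, against 35.4%). In the catalytic head, Atp5b was at 911.66 and 926.57 FPKM in F and 1045.96 and 1064.85 in F2i (log2 fold change 0.24, standard error 0.040, adjusted p = 3e-05). Atp5c1, the central stalk, was 0.29 higher in NB2i than in F2i on the log2 scale (274.55 and 271.58 against 228.07 and 220.69 FPKM). Atp5o and Atp5h, both of the stator, rose by 0.25 and 0.24 over F2i and by 0.45 and 0.43 over −F. Atp5e, also of the central stalk, fell by 0.23 in F2i against F, a call lost without F replicate 1 (adjusted p = 0.22), and Atp5k of the membrane part rose by 0.28, a call lost without F2i replicate 1 (adjusted p = 0.096).

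The c ring subunit is made from 3 genes whose mature proteins are the same and whose import sequences differ. Atp5g1 (chromosome 11, 96072793 to 96075694) was at 146.51 and 126.49 FPKM in −F, 148.68 and 147.00 in F, 205.42 and 202.82 in F2i and 215.55 and 212.92 in NB2i. It was the 1 member called higher in F against −F (0.14, adjusted p = 0.045, lost in 10 alternative fits), and rose by 0.50 in F2i against F (adjusted p = 3.8e-08). The 4 libraries with 2i did not overlap the 4 without. Atp5g2 ranged from 333.44 to 418.35 FPKM and passed only in NB2i against F2i (0.19), a call lost in 4 alternative fits, 2 of which leave out F2i replicate 1 (adjusted p = 0.13) or NB2i replicate 2 (adjusted p = 0.10). Atp5g3 ranged from 265.75 to 321.79 FPKM, with rises of 0.12 over F2i and 0.24 over −F. The former was lost in 11 alternative fits and was 0.01 with the length offset described below. The share of Atp5g1 in the 3 genes' FPKM was thus 16.6% to 18.7% in the libraries without 2i and 22.6% to 24.7% in those with it.

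The 2 genes that share the Atp5 name but are no core subunits ran the other way. Atp5s, also called factor B or Dmac2l, was at 6.93 and 7.27 FPKM in −F, 6.09 and 5.51 in F, 3.74 and 3.46 in F2i and 3.71 and 3.93 in NB2i. Again libraries with and without 2i did not overlap, with falls of 0.65 in F2i against F (standard error 0.12, adjusted p = 0.00011) and 0.83 in NB2i against −F (standard error 0.12, adjusted p = 1.5e-06). Atp5sl, or Dmac2, fell by 0.17 and 0.25. The former call was lost in 5 alternative fits, with DESeq2 (adjusted p = 0.20), with the length offset (0.051) and without F replicate 1 (0.21), F2i replicate 1 (0.15) or F2i replicate 2 (0.06). Atp5l, a membrane subunit, was highest in −F at 214.30 and 191.39 FPKM and lay between 160.72 and 176.59 FPKM elsewhere, falling by 0.31 in F against −F and by 0.19 in NB2i against −F. The latter was lost without −F replicate 1 (adjusted p = 0.064).

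F2i against F and NB2i against −F share no library, and both set a condition with 2i against one without. NB2i and −F also differ in base medium, substrate and serum. In the other pair the summed fibroblast markers were 1519 to 1529 FPKM in F2i against 667 to 687 in F. The part of 2i alone was not tested. Of the members, 32 were higher in both comparisons, which is 91.4% of the 35 in F2i against F and 62.7% of the 51 in NB2i against −F. Over all tested genes 3037 were higher in both, 72.7% of those higher in the first and 53.8% of those higher in the second. Lower in both were 5, Ndufa8, Uqcrfs1, Atp5e, Atp5s and Atp5sl, of 7 and 10, and Sdha and Atp5l passed in opposite directions. The call of Sdha in F2i against F was lost in 9 alternative fits. Genes lower in both or opposite were not counted over all genes, so these counts are a description only. Over the 78 members above 1 FPKM Pearson's r of the 2 sets of log2 fold changes was 0.77, against 0.60 over all 15287 genes. The limit of 1 FPKM was not set for all genes, so the 2 values of r come from unlike sets. Among the members it left out Cox4i2, which was tested and changed by 0.28 in F2i against F and by −2.52 in NB2i against −F. Genes are no independent replicates, and all points rest on the same 8 libraries. F against −F and NB2i against F2i also share no library, and the remaining pairs of comparisons do.

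Members are short genes, and transcript length moved with the fold changes. The median transcript length was 727 bases for the tested members and 2776 for all genes, and 59 of the 79 were at most 1200 bases long. All 1763 tested genes of that length had medians of −0.068, −0.003, 0.096 and 0.041 in the 4 comparisons, in the order given above, so that short genes as a class were also higher in NB2i than in F2i. With a length trend per library taken into the fit, which was chosen after seeing the data, the members' medians were 0.016, 0.125, 0.049 and 0.210, and 33 were higher and 10 lower in NB2i against F2i. The counts in F2i against F (41 and 6) and NB2i against −F (49 and 12) moved less. Shares over all genes were not counted in this fit, so these counts are a description only. Replicate 1 was above replicate 2 in 58 of 78 members in F (median 0.056 on the log2 scale), 21 in F2i (−0.034) and 38 in NB2i (−0.002). The difference was largest in −F: its replicate 1 was above replicate 2 in 68 of 78 members, by a median of 0.103 on the log2 scale. Without it the median of F against −F was 0.016, and without replicate 2 it was −0.100.

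**Figure D5:**
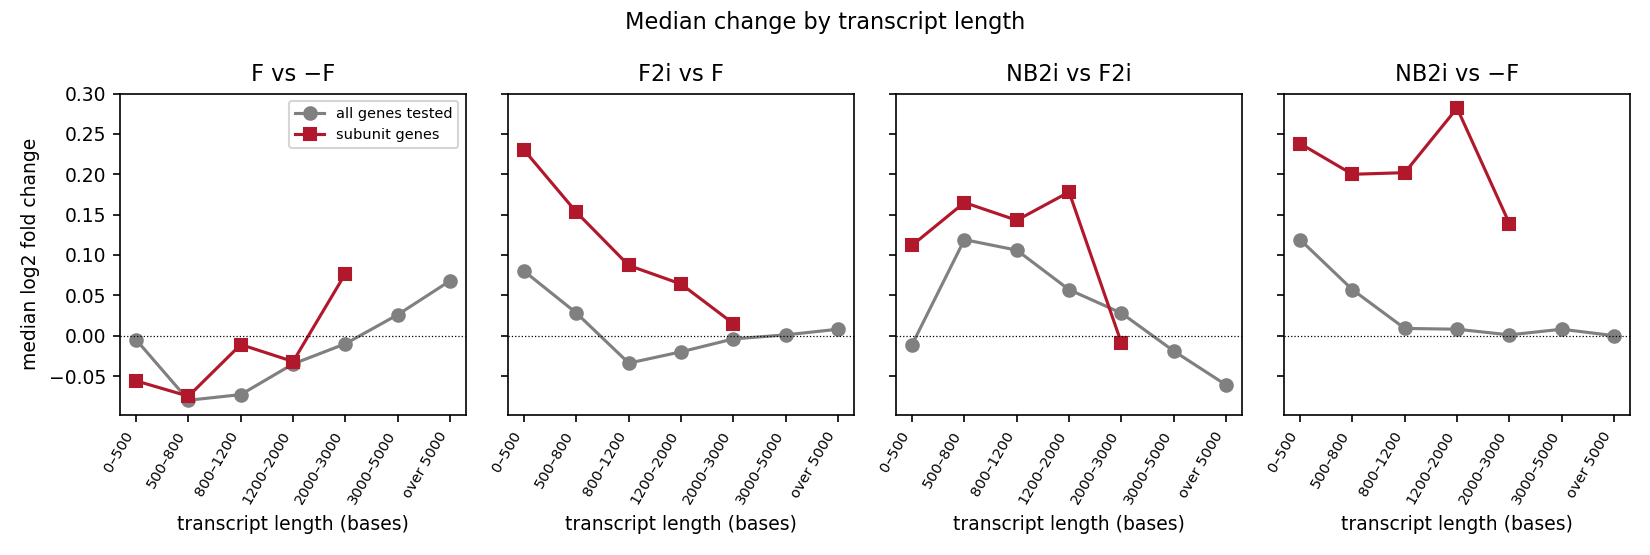
Median log2 fold change (vertical axis) of all tested genes (grey) and of the members (red) by class of transcript length in bases (horizontal axis) in the 4 comparisons. In F2i against F and NB2i against −F the members' medians lie above those of all genes in each class that holds members; the class over 2000 bases holds 4 members.

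Other genes of the pathway were taken from lists. Their counts stand beside 21.7% of all genes higher and 18.5% lower in F against −F, 27.3% and 27.4% in F2i against F, 33.3% and 30.8% in NB2i against F2i and 36.9% and 35.4% in NB2i against −F. Assembly factors, which build the complexes, had 4 of 47 higher and 5 lower in F against −F, 4 and 7 in F2i against F, 22 and 2 in NB2i against F2i and 18 and 7 in NB2i against −F. The share higher was thus 46.8% in NB2i against F2i, and at 38.3% in NB2i against −F it lay near that of all genes. At the step from F2i to NB2i Ndufaf5, a complex I factor, led with 0.83 on the log2 scale, followed by Coa4 (0.58) and Taco1 (0.55). Proteins of the mitochondrial ribosome, which makes the subunits encoded in mitochondrial DNA, had 2 of 74 higher and 18 lower in F against −F, 6 and 18 in F2i against F, 34 and 3 in NB2i against F2i and 19 and 21 in NB2i against −F. In the last of these the shares of 25.7% higher and 28.4% lower were both under those of all genes. Their median in F2i against F was −0.064, on the other side of 0 from the subunits' 0.126, and Mrps27 (−0.48) and Mrps2 (0.35) were at its ends.

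Enzymes of the tricarboxylic acid cycle and pyruvate dehydrogenase were mixed. Of 16, 0 were higher and 3 lower in F against −F (edgeR; 1 higher at an unadjusted p under 0.05 and 0 by DESeq2), and in the other comparisons 3 and 4, 6 and 3, and 9 and 4. Cs, citrate synthase, was 0.35 higher in NB2i than in F2i, and Suclg2 was 0.62 lower in NB2i than in −F. Among 19 genes of electron carriers and adenylate exchange the counts were 2 and 3, 7 and 6, 9 and 6, and 10 and 7. Both subunits of the electron transfer flavoprotein rose in F2i against F (Etfa 0.48, Etfb 0.47), while Cyct, the testis cytochrome c, fell by 0.69 there and by 1.07 from F2i to NB2i. Slc25a4, the heart and muscle adenine nucleotide carrier, fell by 0.61 in NB2i against −F.

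Of 5 related genes whose symbols the rule does not reach, not all of them subunits, Ndufa4l2, a relative of Ndufa4 that responds to low oxygen, changed most. It was at 8.60 and 8.35 FPKM in −F, 13.07 and 14.96 in F, 13.88 and 13.62 in F2i and 2.25 and 1.26 in NB2i, with a fall of 2.96 from F2i to NB2i (adjusted p = 9.8e-13). Its low values in NB2i stood beside those of Cox4i2. The 5 had 1 higher and 1 lower, 2 and 0, 2 and 1, and 1 and 1 in the 4 comparisons by edgeR (the 0 was also 0 by DESeq2 and 0 at an unadjusted p under 0.05).

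Of 22 tested regulators of mitochondrial genes and of ESC metabolism, 6 were higher and 6 lower in F against −F, 5 and 7 in F2i against F, 7 and 7 in NB2i against F2i and 8 and 8 in NB2i against −F. Ppargc1b, a coactivator of mitochondrial genes, was at 2.35 and 2.19 FPKM in F2i and 4.67 and 3.83 in NB2i (log2 fold change 0.92). Gabpa, the DNA-binding subunit of GABP, was 0.25 higher in F2i than in F; its gene overlaps the member Atp5j. Yy1 fell by 0.30 from F2i to NB2i. Myc fell by 1.80 in F2i against F and by 3.54 in NB2i against −F, and Lin28b, an RNA-binding protein, fell by 1.77 and 2.18. Stat3, the transcription factor that LIF activates, rose by 0.99 and Esrrb by 0.82 in NB2i against −F. No test tied these genes to the subunits. The 8 ESC markers had 2 higher and 2 lower, 4 and 2, 2 and 4, and 5 and 3, and the 12 fibroblast markers 12 and 0, 10 and 0, 1 and 10, and 3 and 7 by edgeR (each 0 also by DESeq2 and at an unadjusted p under 0.05).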

How the data were processed

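Poly-A RNA of N33 ESCs was sequenced in 8 samples, 2 in each of 4 culture conditions named in the labels. For the authors' mapping Bowtie2 and mm10 were used, and RSEM assigned the single-end reads of 50 bases to genes (versions not given in the sources used here). The authors deposited an expected count per gene and sample, not normalized, and FPKM values, which divide that count by transcript length and depth. A gene missing from a sample's list was taken as 0. No sample was pooled or left out.

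After rounding, edgeR's quasi-likelihood test (version 4.0.16, R 4.3.3, TMM factors 0.977 to 1.028) was run in 1 fit of all 8 samples, without a block. A gene needed 10 counts or more in 2 samples or more, and Benjamini-Hochberg adjustment covered all 15287 such genes. Where FPKM was summed or averaged no test was made. Replicates differed by a chi-square of 1.885 to 3.712 per degree of freedom, above sampling noise, and each counted as 1 sample. Alternatives were DESeq2 1.42.0, its size factors, other count filters, only the groups compared, a replicate block, each sample left out, limma (3.58.1) with a pseudocount of 1 or 0.1 added to FPKM before log2, TPM sums and, added after seeing the data, a transcript length trend as an offset. In simulated data for F2i against F edgeR recovered 23 of 67 genes changed 1.15-fold, 64 of 67 changed 1.3-fold and 66 of 66 changed 2-fold, with 9 false calls among 15030 genes. The simulation gave all genes the same variation (3.25%), planted only rises in genes with ample counts and held no length trend. All other genes were set equal in the 8 samples, so these rates may not hold for the real data.

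Members and lists were chosen with earlier results of these data known. The genes named are all members of complexes II and III, up to 3 rises and 3 falls past the test per comparison in each of complexes I, IV and V, isoforms of 1 subunit, members past a 2-fold change or short of the count minimum, and up to 3 genes each way per list; not every such gene is named. Counts were not whole in at least 1 library for 11 members, and in all 8 for 6 of them. Another gene in the files overlaps 15 members, so their values may hold reads of other genes. Coordinates are RefSeq's on GRCm38.p6, counted from 1.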

Additional observations from a re-analysis of the deposited data

How the results depend on the processing

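The direction of the members' median was kept in F2i against F, NB2i against F2i and NB2i against −F under every alternative run, while that of F against −F turned positive without −F replicate 1 and with the length offset (0.016 each). In F against −F the number of members higher was 0 with DESeq2, with its size factors, without a count filter and with only the groups compared (3 at an unadjusted p under 0.05 in the edgeR fit), 2 with limma without a filter and 9 with the length offset. The number lower was 8 with DESeq2, 8 with only the groups compared and 7 with the length offset. In F2i against F, DESeq2 called 2 lower, limma without a filter called 21 higher, and the median was 0.076, 0.077 and 0.072 in the limma fits on log2(FPKM + 1), log2(FPKM + 0.1) and without a filter. In NB2i against F2i, 5 were lower with limma without a filter and with only the groups compared and 10 with the length offset, and the median was 0.104 with at least 10 counts in every sample and 0.049 with the offset. In NB2i against −F the median was 0.157 with limma without a filter. As TPM, the summed level of NB2i over F2i was 13.7% higher for complex IV and 4.35% for complex V. The causes were not tested. Shares over all genes were not counted under DESeq2 or any other alternative fit, so their counts of members are a description. This holds also for the fits with 1 sample left out and with the replicate number as a block.

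With 1 sample left out, which leaves an arm with a lone library assumed to vary like the others, 0 to 1 members were higher and 6 to 21 lower in F against −F (median −0.100 to 0.016). In F2i against F the counts were 25 to 34 and 1 to 5 (median 0.084 to 0.147), in NB2i against F2i 30 to 42 and 3 (median 0.103 to 0.178), and in NB2i against −F 43 to 53 and 7 to 12 (median 0.165 to 0.277). Of 210 values of named genes past the test, recomputed 2936 times, 275 lost the call with the same direction and 1 changed sign, that of Cox7b in NB2i against F2i at −0.0047 with the length offset. Replicate numbers 1 and 2 are shared by the groups, and deviations of samples with the same number correlated by −0.0857 to 0.0516 over 6 pairs of groups, so no pairing was seen. With the replicate number as a block 1 and 13, 36 and 6, 41 and 3, and 51 and 10 members were higher and lower in the 4 comparisons.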
